A study of Mus musculus with 8 samples.

Results

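The machinery that fuses vesicles with the plasma membrane was followed in the supporting cells of the neonatal mouse cochlea through 72 genes of the 36536 with counts. A gene was taken when it codes for a protein and its symbol names a synaptotagmin (Syt), a synaptotagmin-like protein (Sytl), a Vamp, a syntaxin (Stx), *Snap23*, *Snap25*, *Snap29*, *Snap47* or *Snap91*, a complexin (Cplx), a Rim (Rims), an Unc13, a syntaxin binding protein (Stxbp), a Rab3, a Rab27 or rabphilin (*Rph3a*). The rule used names and no measured value. Cochleas of mice at postnatal day 1 (P1) and postnatal day 6 (P6) that carry *Lfng-GFP*, a GENSAT bacterial artificial chromosome transgene in which regulatory sequence of *Lfng* drives GFP, were dissociated without culture or treatment and sorted. At each age the GFP- cells were collected beside the brightest GFP+ cells, which gives 4 groups with 2 replicate libraries of pooled sorted cells in each. The dissection differed between the ages. At P1 the stria vascularis, lateral wall and Reissner's membrane were separated off, whereas at P6 they were removed in part only. Age and dissection thus cannot be told apart in any comparison between the ages. All 4 groups, controls included, come from transgenic cochleas. In sections the transgene marks Deiters' cells, outer pillar cells, border cells and inner phalangeal cells, and leaves out inner pillar cells, so the GFP+ fraction stands for most and not all supporting cells. Cells with a weak GFP signal, taken by the study for inner hair cells and inner pillar cells, were left out of both fractions, and the GFP- fraction is the mixture of cell types without detectable GFP. The labels do not say whether the 2 replicates of a group came from separate animals, so the p-values measure the spread between these libraries.

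A vesicle fuses when a Vamp on its membrane zips together with a syntaxin and a Snap protein on the target membrane into a SNARE bundle. Syntaxin binding proteins such as *Stxbp2* hold and guide the syntaxin, Unc13 proteins prime the vesicle, Rims tether it at the release site through Rab3 GTPases, Rab27 GTPases and their synaptotagmin-like effectors dock secretory granules, and synaptotagmins and complexins couple fusion to calcium. Neurons are known for one set of these paralogues (*Stx1a*, *Snap25*, *Unc13a*, *Syt1*), and secretory epithelia for another (*Stx3*, *Snap23*, *Stxbp2*). Before hearing starts, supporting cells of the developing cochlea are known to release ATP, and the adjacent inner hair cells release glutamate at ribbon synapses.

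The libraries held 17769024 to 67695039 counts on genes, and levels are given in counts-per-million (CPM) of these, in the order replicate 1 and replicate 2. At P1, 7 of 7 supporting cell markers (*Lfng*, *Sox2*, *Prox1*, *Hes5*, *Fgfr3*, *Cdkn1b*, *Lgr5*) were higher in GFP+ cells, and they were so again at P6. Of 9 hair cell markers, 7 at P1 and 6 at P6 were higher in GFP+ cells, with median log2 fold changes of 3.32 and 4.08 over the 9. Their summed levels were 697 and 803 CPM in P1 GFP+, 456 and 396 in P1 GFP-, 495 and 528 in P6 GFP+ and 341 and 382 CPM in P6 GFP- libraries. Most of each sum was *Myo6*, called between the fractions at neither age, at 442 and 476, 406 and 349, 250 and 325 and 312 and 340 CPM. Of 9 spiral ganglion neuron markers, 7 at P1 and 1 at P6 were higher in GFP- cells. Their sum was 58.3 and 57.4 CPM in P1 GFP+, 211 and 714 in P1 GFP-, 69.8 and 95.1 in P6 GFP+ and 149.6 and 105 CPM in P6 GFP- libraries, with no marker of either list at 0 in any P1 library and *Atoh1* at 0 in P6 GFP- replicate 2. P6 GFP+ replicate 2 held more of the mesenchyme markers than replicate 1 (544 and 2024 CPM summed over 5 genes, against 12800.0 and 12694 in P6 GFP- libraries), more of the Schwann and satellite glia markers (1108 and 2347 CPM over 6 genes) and more of the endothelium markers (33.7 and 141 CPM over 3 genes). The part of hair cells, neurons or these other cells in the results was not tested.

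The first comparison asked which members of the machinery distinguish GFP+ from GFP- cells at P1. Of 68 members with enough counts to be tested, 12 were higher in GFP+ cells at an adjusted p below 0.01, 17.6% of them against 16.6% of all 18682 genes tested, and 17 were higher in GFP- cells, 25% against 20.7%. With the further criterion of a fold change above 4, 6 members were higher in GFP+ cells (8.82% against 6.46% of all genes) and 8 in GFP- cells (11.8% against 11.4%), so the members were called about as often as genes at large. The median log2 fold change of GFP+ over GFP- cells was -0.30 over the members and 0.01 over all genes. In such bulk libraries, fewer cells of a type and less RNA per cell cannot be told apart. Where a library was left out, the share of all genes called was not worked out. Shifts in the number of members called are therefore not read as a trait of the members.

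On the GFP+ side stood an epithelial syntaxin with its binding partner, 1 Rim, 1 Unc13, 1 Rab3, 1 Rab27 and a single dominant synaptotagmin. *Syt6*, a synaptotagmin known from the acrosome reaction of sperm, was at 387 and 381 CPM in the P1 GFP+ libraries and 3.93 and 6.91 CPM in the P1 GFP- libraries. *Rab3b*, a vesicle GTPase, was at 205 and 188 against 2.77 and 3.38 CPM. These 2 genes had the largest fold changes among the members tested at P1, 74.9 and 68.2, and in both the lowest GFP+ library lay far above the highest GFP- library. *Stx3*, a plasma membrane syntaxin of epithelia and ribbon synapses, was at 106 and 116 CPM in GFP+ and 7.36 and 12.1 CPM in GFP- libraries, a log2 fold change of 3.60 (SE 0.23, edgeR adjusted p = 8.1e-05). *Stxbp2*, the syntaxin binding protein that pairs with *Stx3* outside neurons, was at 129.9 and 143 against 23 and 40.1 CPM, a log2 fold change of 2.21 (SE 0.25, edgeR adjusted p = 7.3e-04). Both partners of this pair were thus higher in GFP+ cells, and neither had groups that overlapped. *Snap23*, the remaining gene named above for secretory epithelia, leaned the other way and was not called. Its log2 fold change was -0.28 (SE 0.09, edgeR adjusted p = 0.043).

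The priming and tethering factors each had 1 paralogue on this side. *Unc13b* was the most abundant Unc13 in GFP+ cells, at 425 and 425 CPM against 114 and 146 CPM in the GFP- libraries, a log2 fold change of 1.81 (SE 0.14, edgeR adjusted p = 1.5e-04). *Rims2*, a scaffold that binds Rab3 on the vesicle, was at 30.8 and 32.1 against 6.54 and 11.3 CPM, a log2 fold change of 1.91 (SE 0.25, edgeR adjusted p = 0.0014). *Rab27b*, a GTPase of secretory granules, had a log2 fold change of 1.30 (SE 0.18, edgeR adjusted p = 0.0016), and *Sytl1*, one of its effectors, had one of 2.07 (SE 0.23, edgeR adjusted p = 6.5e-04) at low levels (5.5 and 6.71 against 1.53 and 1.58 CPM). The other 4 members of the group were *Syt14*, whose C2 domains are not known to bind calcium, *Stxbp5* (tomosyn), which holds back SNARE assembly, and the endosomal syntaxins *Stx6* and *Stx7*. Their log2 fold changes were 2.02, 1.04, 0.77 and 0.62, so the endosomal syntaxins changed least. Without P1 GFP- replicate 2 more members were called higher in GFP+ cells. Without P1 GFP+ replicate 1 or replicate 2, *Rab27b*, *Stx6* and *Stx7* no longer passed the threshold, and fewer members were called on this side.

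**Figure D1:**
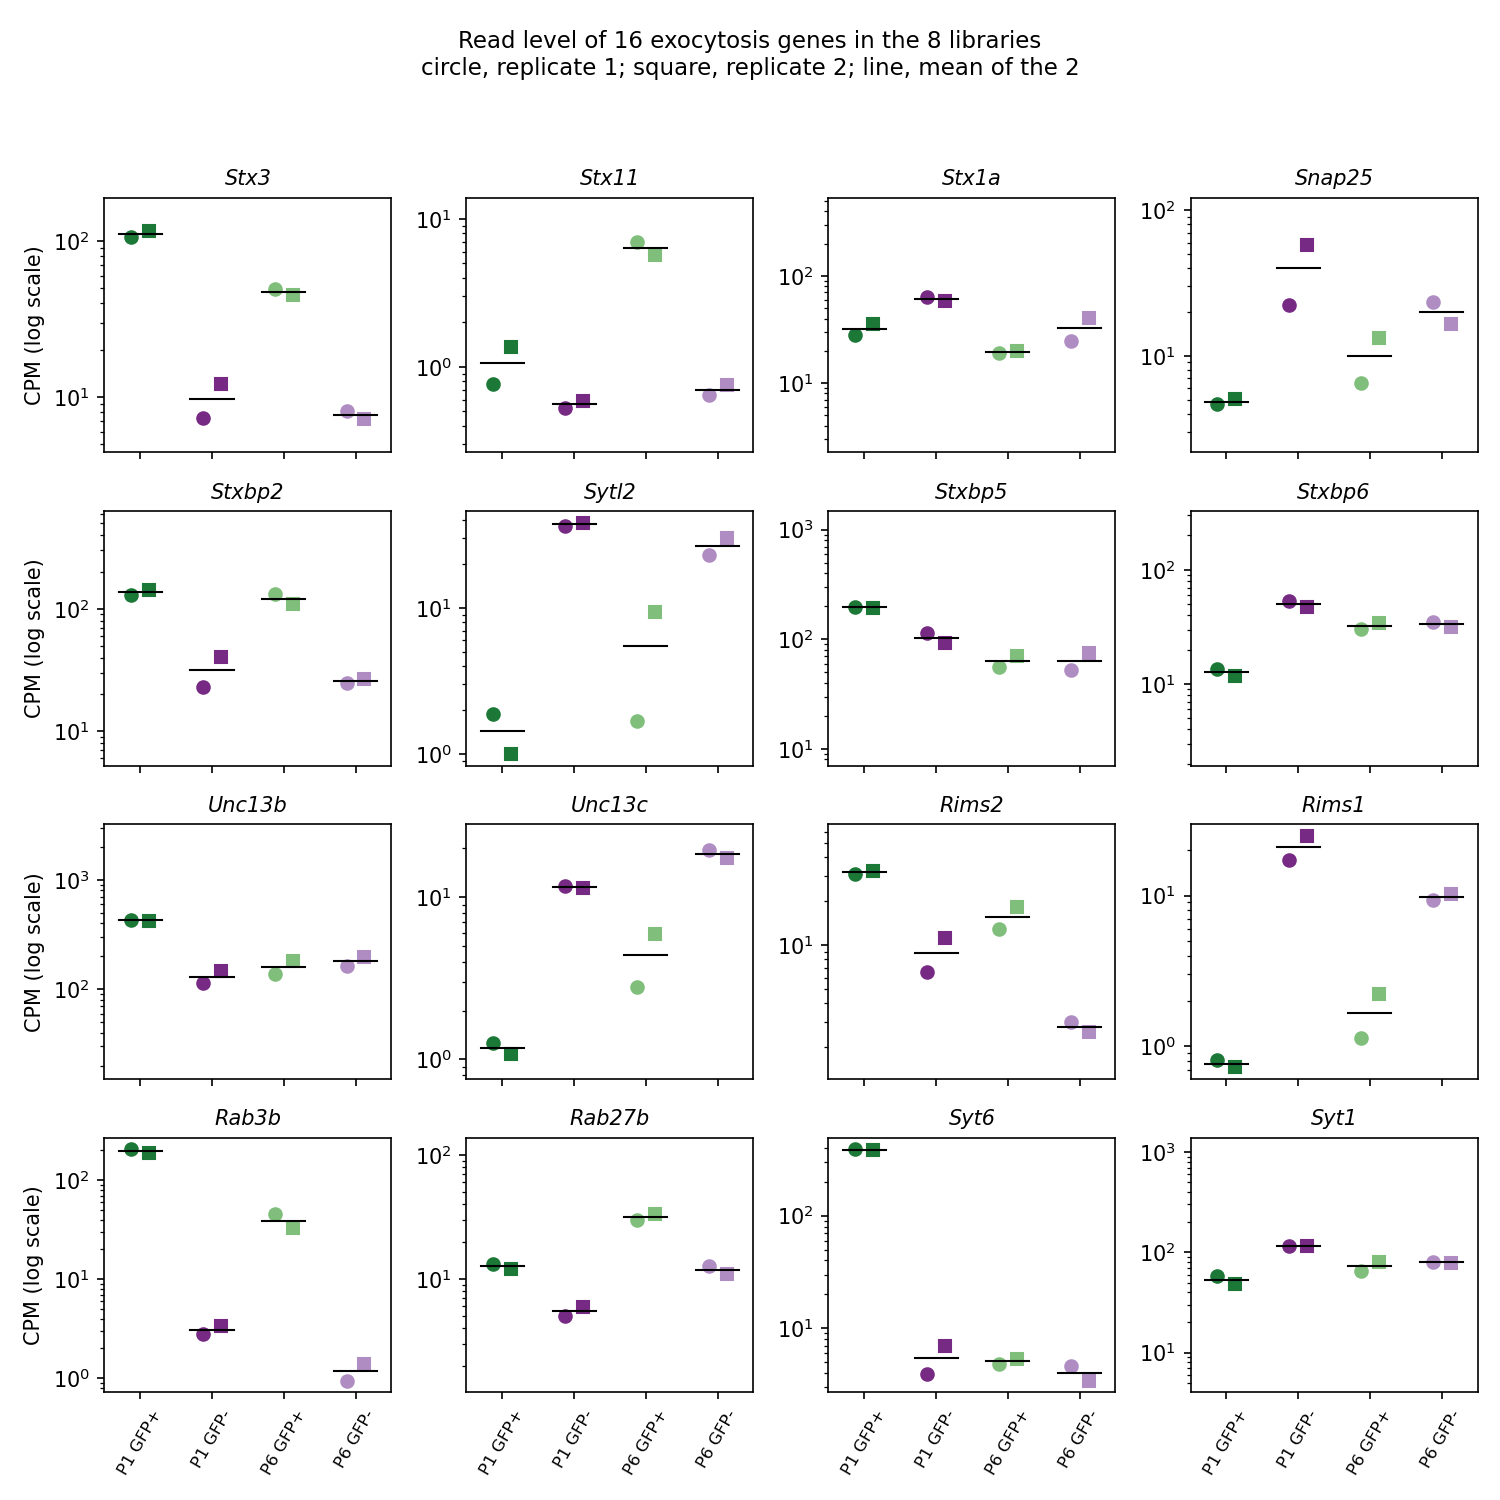
CPM (log axis, a range of its own in each panel) of 16 members in the 8 libraries, by group on the horizontal axis, with circles for replicate 1, squares for replicate 2 and a line at the mean of the 2. *Stx3*, *Stxbp2*, *Rims2* and *Rab3b* are higher in both GFP+ groups, *Syt6* and *Unc13b* stand out in P1 GFP+ libraries, and *Rims1* and *Unc13c* are lowest there.

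Of the 12 members higher in P1 GFP+ cells, 5 also fell within GFP+ cells between P1 and P6: *Syt6*, *Rab3b*, *Stx3*, *Unc13b* and *Stxbp5*. Both comparisons use the P1 GFP+ libraries, so a gene high in them tends to meet both calls. The share of all genes that met both was not worked out, and the number of members is not read as a result. The promoters of these 5 are shown because they met both calls. In the mm9 (NCBIM37) build of the count files the whole genes, not their promoters, span these positions: *Syt6* (chr3:103379154-103449490, plus strand), *Rab3b* (chr4:108551668-108615929, plus strand), *Stx3* (chr19:11849609-11893893, minus strand), *Unc13b* (chr4:43071825-43277745, plus strand) and *Stxbp5* (chr10:9475345-9620877, minus strand). The sequences below are RefSeq's, from another build (GRCm38.p6), and are windows of 300 bases around a transcript's start, most of it upstream, written 5' to 3' on the gene's strand. They are at chr3:103574995-103575294, plus strand (the most upstream of 3 starts listed for *Syt6*), chr4:108878820-108879119, plus strand, chr19:11819354-11819653, minus strand, chr4:43058703-43059002, plus strand and chr10:9900991-9901290, minus strand. Capitals mark 3 motifs searched on both strands, TGGGAA (the core bound by RBPJ, the DNA-binding partner of Notch), GGGCGG (the GC box) and TATAAA (the TATA box), and adjacent matches may overlap.
Syt6: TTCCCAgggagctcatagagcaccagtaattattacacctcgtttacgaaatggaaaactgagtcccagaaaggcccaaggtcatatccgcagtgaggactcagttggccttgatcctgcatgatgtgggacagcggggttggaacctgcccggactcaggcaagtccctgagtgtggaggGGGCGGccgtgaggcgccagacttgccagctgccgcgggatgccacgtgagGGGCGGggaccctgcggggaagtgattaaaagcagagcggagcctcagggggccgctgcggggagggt
Rab3b: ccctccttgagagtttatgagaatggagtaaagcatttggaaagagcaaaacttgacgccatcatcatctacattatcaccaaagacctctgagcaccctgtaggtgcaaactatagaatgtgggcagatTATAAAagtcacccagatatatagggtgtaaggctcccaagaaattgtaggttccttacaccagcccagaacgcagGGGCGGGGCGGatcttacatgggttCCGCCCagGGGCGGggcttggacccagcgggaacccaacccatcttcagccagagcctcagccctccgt
Stx3: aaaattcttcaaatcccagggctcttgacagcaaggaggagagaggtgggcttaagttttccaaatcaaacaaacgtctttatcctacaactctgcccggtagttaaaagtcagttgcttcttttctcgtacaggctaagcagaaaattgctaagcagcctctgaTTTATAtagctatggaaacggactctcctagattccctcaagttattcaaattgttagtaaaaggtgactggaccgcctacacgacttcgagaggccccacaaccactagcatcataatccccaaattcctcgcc
Unc13b: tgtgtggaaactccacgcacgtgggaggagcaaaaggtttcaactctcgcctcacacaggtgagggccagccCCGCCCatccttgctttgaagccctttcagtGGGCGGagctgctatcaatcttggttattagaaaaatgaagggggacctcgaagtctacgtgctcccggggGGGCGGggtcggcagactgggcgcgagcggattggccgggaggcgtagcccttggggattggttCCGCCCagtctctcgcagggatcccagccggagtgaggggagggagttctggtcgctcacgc
Stxbp5: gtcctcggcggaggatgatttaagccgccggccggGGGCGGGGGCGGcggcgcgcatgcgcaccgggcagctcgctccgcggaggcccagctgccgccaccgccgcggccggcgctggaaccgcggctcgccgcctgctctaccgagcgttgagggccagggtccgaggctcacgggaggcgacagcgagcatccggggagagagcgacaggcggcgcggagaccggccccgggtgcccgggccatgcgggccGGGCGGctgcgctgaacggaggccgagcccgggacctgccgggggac
The GC box was in 4 of the 5 windows and absent from that of *Stx3*. The letters TATAAA were in that of *Rab3b* and, on the opposite strand, in that of *Stx3*. TGGGAA was in that of *Syt6* alone, on the opposite strand at the window's first bases. The *Syt6* windows that begin at chr3:103575032 and chr3:103575876, not shown, held 0 and 1 TGGGAA. Whether a match works as the motif it is named for was not tested. Among all 32851 mouse promoters of this length in the table, 35.7% held the GC box, 13.6% the TATA box and 25.6% TGGGAA. Of the 72 members, 55 had a promoter in the table, and 40 of these had one with the GC box, 3 one with the TATA box and 15 one with TGGGAA.

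On the GFP- side at P1 stood another Rim, another Unc13 and the other Rab27, a pair of synaptotagmin-like proteins and several members known from neurons. *Rims1*, the Rim of most central synapses, was at 0.807 and 0.723 CPM in GFP+ and 17.1 and 24.9 CPM in GFP- libraries, a log2 fold change of -4.65 (SE 0.27, edgeR adjusted p = 6.0e-05), in the direction opposite to *Rims2*. *Unc13c*, opposite to *Unc13b*, was at 1.27 and 1.08 against 11.8 and 11.4 CPM, a log2 fold change of -3.17 (SE 0.21, edgeR adjusted p = 9.2e-05). The 2 families thus split between the fractions. *Syt4*, a synaptotagmin of neuroendocrine vesicles, was at 0.305 and 0.442 against 8.76 and 17.2 CPM and had the largest change on this side, a log2 fold change of -5.06 (SE 0.45, edgeR adjusted p = 2.9e-04). *Sytl2* and *Sytl4*, effectors of *Rab27a* in granule docking, were at 1.9 and 1.0 and at 1.51 and 1.53 CPM in GFP+ libraries, and at 36.3 and 38.3 and at 9.42 and 8.72 CPM in GFP- libraries. The log2 fold change of *Rab27a* itself was -1.15 (SE 0.22, edgeR adjusted p = 0.0062), so that the Rab27 pair split as well.

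Of the genes named above as known from neurons, *Snap25*, *Syt1* and *Stx1a* were lower in GFP+ cells, and *Unc13a* (-1.46, edgeR adjusted p = 0.015) was not called. *Snap25* was at 4.63 and 5.06 CPM in P1 GFP+ and 22.5 and 57.4 CPM in P1 GFP- libraries, a log2 fold change of -2.94 (SE 0.45, edgeR adjusted p = 0.0025). *Cplx1*, a complexin of neurons, was at 6.33 and 7.19 against 23.8 and 86.3 CPM, a log2 fold change of -2.93 (SE 0.59, edgeR adjusted p = 0.0077). In both genes P1 GFP- replicate 2 held more than replicate 1, as it did for the summed neuron markers, and without that library their log2 fold changes were -2.13 and -1.73. *Syt1* (log2 fold change -1.01) and *Stx1a* (-0.84) were lower in GFP+ cells by smaller steps. *Syt1*, which was at 57.9 and 48.2 against 115 and 115 CPM, and *Stx1a*, at 28 and 35.9 against 63.9 and 58 CPM, were no higher in GFP- replicate 2 than in replicate 1. Also called on this side were *Syt16* (-2.31), *Stxbp6* (-1.88), which is known as amisyn and binds syntaxin in place of a Vamp, the widely expressed *Vamp3* (-0.91) and *Vamp4* (-0.75) and the plasma membrane syntaxin *Stx2* (-0.67).

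Which libraries were used moved this count. Without P1 GFP+ replicate 1 or replicate 2, fewer members were higher in GFP- cells. *Snap25*, *Cplx1*, *Rab27a*, *Stx2*, *Vamp3* and *Vamp4* no longer passed in either case, nor did *Stx1a* without replicate 1. Without P1 GFP- replicate 1, more members were higher in GFP- cells. *Rims1*, *Unc13c*, *Syt4*, *Sytl2* and *Sytl4* passed under each of these omissions, with the log2 fold change of *Sytl2* at -5.13 without P1 GFP+ replicate 1 in place of -4.50.

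**Figure D2:**
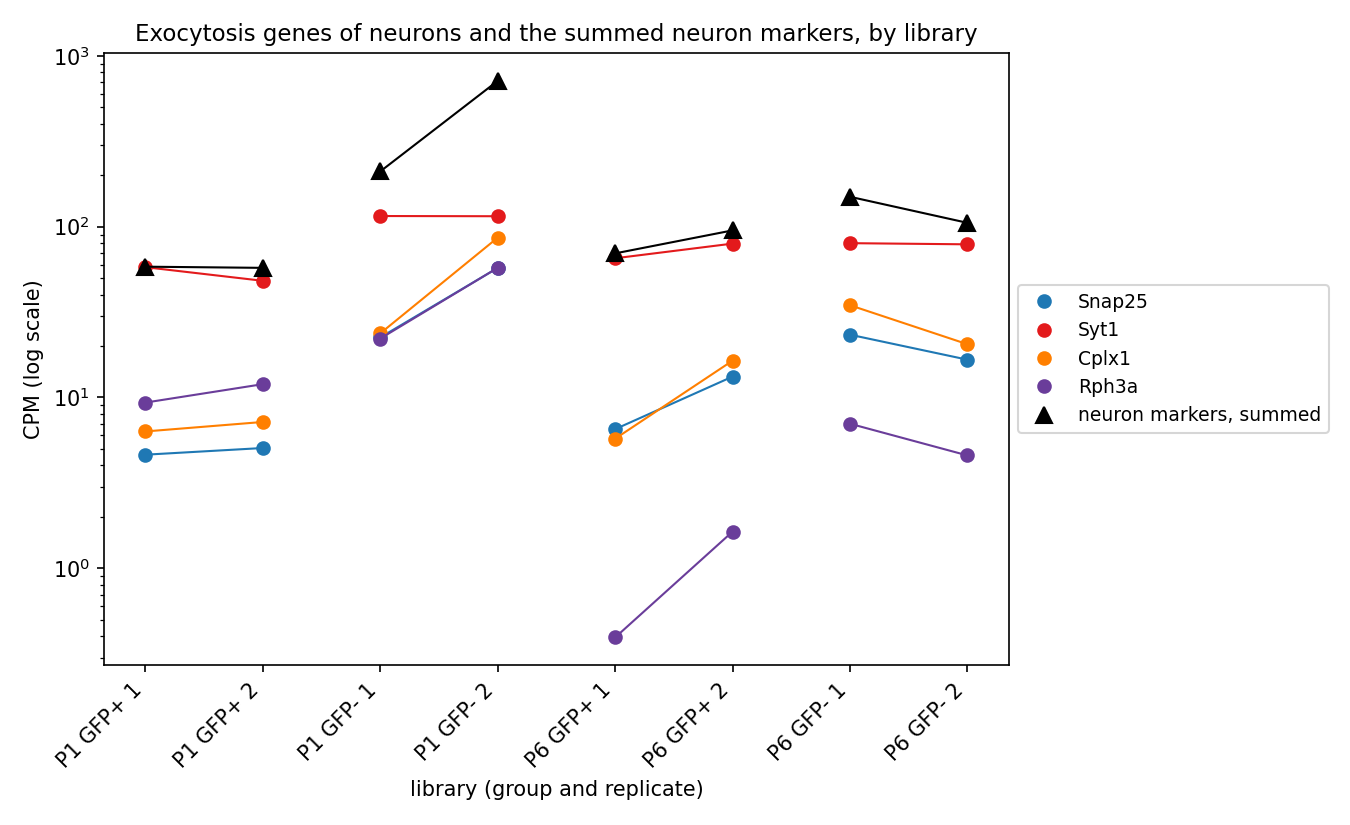
CPM (log axis) of 4 members known from neurons and of the 9 spiral ganglion neuron markers summed (triangles), with 1 position on the horizontal axis for each library and a line joining the 2 replicates of a group. P1 GFP- replicate 2 has the highest marker sum, 714 CPM, and holds more *Cplx1*, *Snap25* and *Rph3a* than replicate 1, while *Syt1* is at 115 CPM in both.

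At P6, 10 of 69 members tested were higher in GFP+ cells (14.5%, against 7.72% of all 18294 genes) and 3 were higher in GFP- cells (4.35%, against 5.19%). With a fold change above 4, there were 7 (10.1% against 4.88%) and 2 (2.9% against 3.1%). The median log2 fold change was -0.07 over the members and -0.02 over all genes. The epithelial pair, the Rim, the Rab3 and the Rab27 of P1 were still higher in GFP+ cells. *Snap23* was again not called and leaned the other way (-0.36, SE 0.16, edgeR adjusted p = 0.13). *Rab3b* was at 45.1 and 32.8 CPM in P6 GFP+ and 0.94 and 1.4 CPM in P6 GFP- libraries, a log2 fold change of 5.05 (SE 0.32, edgeR adjusted p = 8.6e-04). *Stx3* was at 49.4 and 45 against 8.16 and 7.25 CPM, *Stxbp2* at 132 and 110.3 against 24.6 and 26.5 CPM and *Rims2* at 12.9 and 18.4 against 2.98 and 2.54 CPM, with log2 fold changes of 2.61, 2.24 and 2.49. In all 4 genes the lowest GFP+ library was above the highest GFP- library by a factor of at least 4. *Rab27b* (1.404, SE 0.18), *Sytl1* (2.40, SE 0.37), *Stx6* (1.65, SE 0.19) and *Stx7* (1.41, SE 0.19) were also higher in GFP+ cells, so 8 members were called on this side at both ages (11.8%, against 6.36% of all genes tested at both).

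A pair of members were called at P6 and not at P1. *Stx11*, a lipid-anchored syntaxin known from granule release by lymphocytes, was at 6.98 and 5.73 CPM in P6 GFP+ and 0.649 and 0.753 CPM in P6 GFP- libraries, a log2 fold change of 3.17 (SE 0.32, edgeR adjusted p = 0.0025). At P1 it was at 0.764 and 1.37 and 0.528 and 0.586 CPM, a difference of 0.99 (SE 0.40, edgeR adjusted p = 0.083), and the difference between the ages in this ratio had an adjusted p of 0.042. *Rab3c* was at 2.53 and 4.12 against 0.681 and 0.547 CPM at P6, a log2 fold change of 2.43 (SE 0.39, edgeR adjusted p = 0.0088). At P1 the *Rab3c* libraries of the 2 fractions met, at 3.45 and 3.94 and 1.06 and 3.45 CPM. The log2 fold change of *Rab3c* at P1 was 0.78 (SE 0.52, edgeR adjusted p = 0.25). The difference between the ages in its ratio, 1.64 (SE 0.73, edgeR adjusted p = 0.25), was not called. On the GFP- side, *Rims1* (1.13 and 2.21 against 9.39 and 10.3 CPM, a log2 fold change of -2.54, SE 0.37, edgeR adjusted p = 0.0065), *Sytl4* (-2.50, SE 0.37, edgeR adjusted p = 0.0067) and *Rab27a* (-1.59, SE 0.26, edgeR adjusted p = 0.0092) were called at both ages (4.41%, against 4.63% of all genes tested at both).

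Many of the P1 differences were no longer called at P6. *Syt6* was at 4.84 and 5.32 CPM in P6 GFP+ and 4.62 and 3.41 CPM in P6 GFP- libraries, and its log2 fold change was 0.33 (SE 0.29, edgeR adjusted p = 0.43). *Unc13b* (-0.17, SE 0.20, edgeR adjusted p = 0.55) and *Stxbp5* (-0.02, SE 0.22, edgeR adjusted p = 0.96) had libraries that overlapped between the fractions. For several GFP- members the P6 GFP+ replicates lay apart: *Sytl2* was at 1.69 and 9.31 CPM, *Unc13c* at 2.81 and 5.96 CPM, *Syt4* at 1.29 and 3.85 CPM and *Cplx1* at 5.74 and 16.4 CPM. In each of these, replicate 2, the library with more mesenchyme, glia and endothelium markers, was the higher. Without P6 GFP+ replicate 1 or replicate 2, more members were called on both sides, and the share of all genes called was not worked out. With 1 GFP- library the test had few calls left, 2 on the GFP+ side (*Rab3b* and *Stx3*) and 0 on the other without P6 GFP- replicate 1, and 0 on both sides without replicate 2, with an adjusted p of at most 0.094 in the 13 members.

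**Figure D3:**
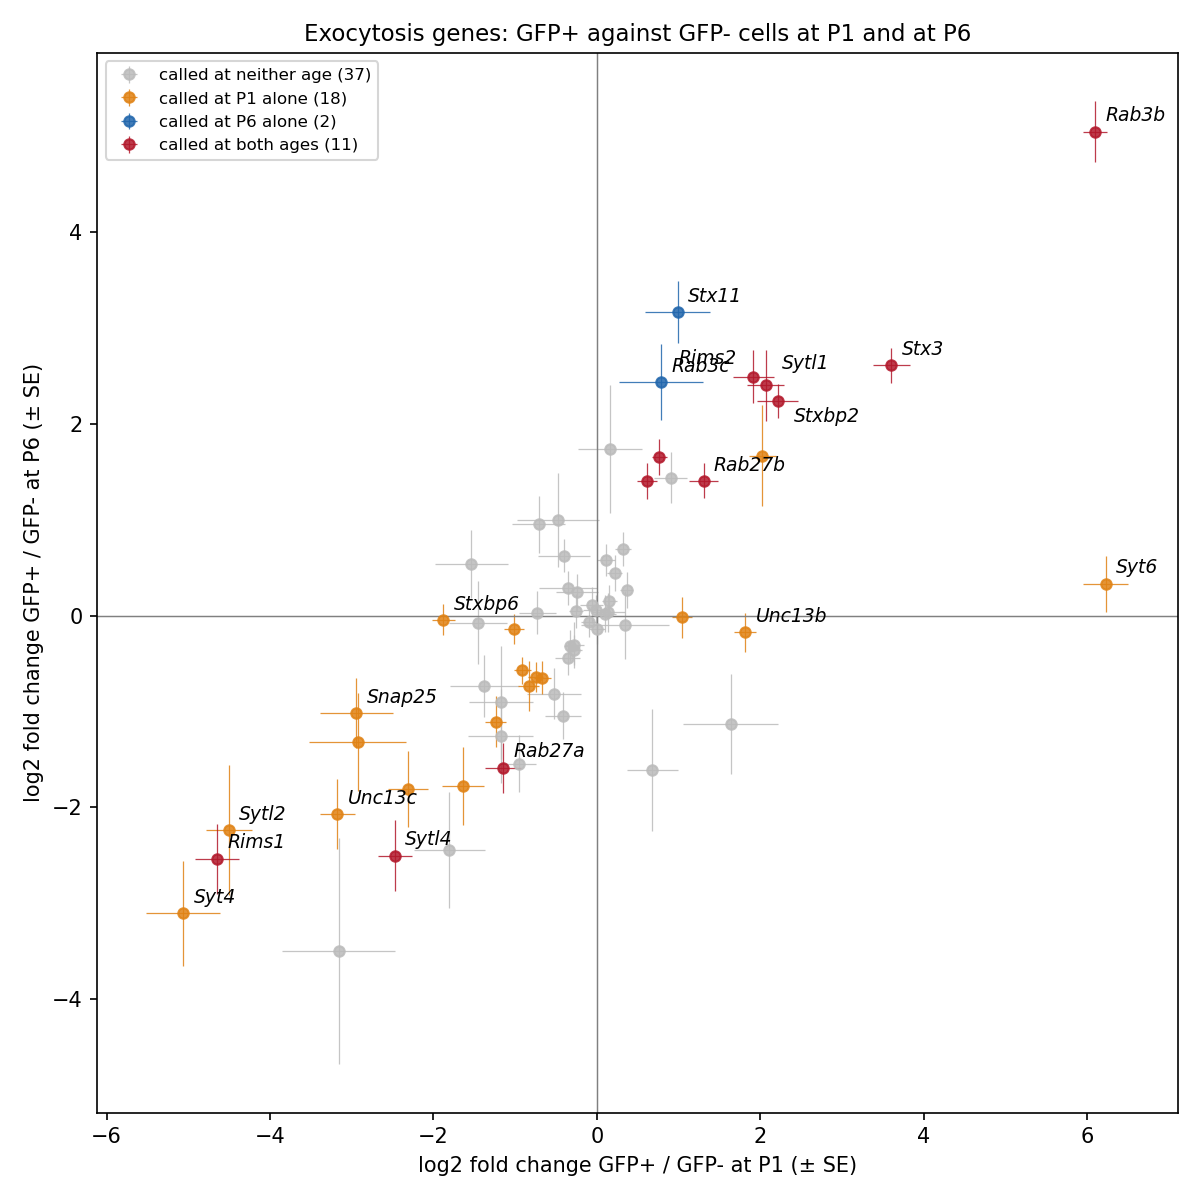
Log2 fold change of GFP+ over GFP- cells at P1 (horizontal axis) and at P6 (vertical axis) for the 68 members tested at both ages, with bars of 1 SE and colour for the age at which a member was called. Of these, 11 were called at both ages (16.2%, against 11.1% of all genes tested at both), 18 at P1 alone (26.5% against 26.9%) and 2 at P6 alone (2.94% against 1.91%), and *Syt6* lies at 6.23 on the P1 axis and 0.33 on the P6 axis.

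Between P1 and P6, 9 of 68 members tested changed within GFP+ cells (13.2%, against 4.81% of all genes), 7 of them downward. The 7 that were higher at P1 are 10.3% of the members, against 1.95% of all 17213 genes, and the 2 that were higher at P6 are 2.94%, against 2.86%. With a fold change above 4, 4 fell (5.88% against 0.93%) and 0 rose (0% against 1.63%) by edgeR, while 4 of the latter kind had an unadjusted p below 0.05 and DESeq2 called 3. The median log2 fold change of P6 over P1 was 0.08 over the members and -0.00 over all genes, and the median size of the change, whatever its direction, was 0.54 and 0.43. In the same comparison 2 of the 9 hair cell markers (*Myo7a* and *Atoh1*) fell and 1 (*Ocm*) rose. Of the 7 supporting cell markers, 2 fell, *Prox1* (-2.25) and *Hes5* (-2.97), and 0 rose, with a median log2 fold change of -0.59 over the 7. The Schwann and satellite glia markers went from 419 and 360.3 to 1108 and 2347 CPM summed, with adjusted p from 0.014 to 0.18 for the 6 genes by edgeR. Of these sums, *Sox10*, which was higher in GFP+ than in GFP- cells at both ages, held 275 and 286 CPM at P1 and 340 and 306 CPM at P6. The mesenchyme markers went from 170 and 171 to 544 and 2024 CPM summed, and the endothelium markers from 19.5 and 16.9 to 33.7 and 141 CPM. Over the genes of these 2 lists the adjusted p by edgeR was from 0.011 to 0.073. The part of glial, mesenchyme or endothelium cells in the members' changes was not tested. *Syt6* dropped from 387 and 381 CPM to 4.84 and 5.32 CPM, a log2 fold change of -6.15 (SE 0.15, edgeR adjusted p = 0.0016). *Syt5*, a synaptotagmin of neuroendocrine granules, dropped from 17.5 and 16.1 to 0.281 and 0.435 CPM, a log2 fold change of -5.40 (SE 0.30, edgeR adjusted p = 0.0023). Both thus ended at or near the level of GFP- cells, which at P6 was 4.62 and 3.41 CPM for *Syt6* and 1.02 and 0.591 CPM for *Syt5*.

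The other decreases left more of the transcript in place. *Rab3b* went from 205 and 188 to 45.1 and 32.8 CPM, a log2 fold change of -2.24 (SE 0.21, edgeR adjusted p = 0.0044), and remained above GFP- cells. *Stx3* (-1.14, SE 0.13, edgeR adjusted p = 0.0066), *Stxbp5* (-1.55, SE 0.14, edgeR adjusted p = 0.0045) and *Unc13b* (-1.31, SE 0.16, edgeR adjusted p = 0.009) fell by less, to 49.4 and 45, 55.7 and 70.3 and 139 and 183 CPM. *Syt17*, a synaptotagmin without a transmembrane segment, went from 6.7 and 5.46 to 1.13 and 0.971 CPM (-2.45, SE 0.31, edgeR adjusted p = 0.0091). The increases were those of *Stxbp6*, from 13.6 and 11.8 to 30.3 and 34.4 CPM (1.44, SE 0.17, edgeR adjusted p = 0.0076), and *Rab27b*, from 13.2 and 12 to 30.1 and 33.2 CPM (1.41, SE 0.16, edgeR adjusted p = 0.0067). *Rims2* (-0.92, adjusted p = 0.034), *Stx6* (1.03, 0.015) and *Stx11* (2.70, 0.012) did not pass the edgeR threshold.

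These counts depended on single libraries. Without P1 GFP+ replicate 1 or replicate 2, fewer members were called in both directions. *Syt6*, *Syt5* and *Rab3b* passed in both cases, *Stxbp5* without replicate 1 alone, and *Stx3*, *Unc13b*, *Syt17*, *Stxbp6* and *Rab27b* in neither, with an adjusted p of at most 0.088. Without P6 GFP+ replicate 1 or replicate 2, more members were called in both directions, and the share of all genes called was not worked out.

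Within GFP- cells, 3 of 69 members changed between the ages (4.35%, against 7.38% of all genes). The part of the different dissection at the 2 ages in these changes was not tested. *Rab27b* was the only one higher at P6 (1.45% of the members, against 5.04% of all 18920 genes), with a change below the 4-fold that 1.43% of all genes passed in this direction. The other 2 were higher at P1 (2.9%, against 2.34%), both with a fold change above 4 (2.9%, against 0.418%). The median log2 fold change of P6 over P1 was -0.11 over the members and -0.02 over all genes. *Rab27b* rose from 5.04 and 5.94 to 12.8 and 11 CPM, a log2 fold change of 1.30 (SE 0.20, edgeR adjusted p = 0.0062), near its change of 1.41 in GFP+ cells. *Unc13a*, the main Unc13 of glutamatergic synapses, fell from 7.47 and 13.4 to 1.8 and 1.88 CPM (-2.31, SE 0.32, edgeR adjusted p = 0.0041). *Rph3a*, a Rab3 effector of synaptic vesicles, fell from 22.1 and 57.5 to 7.02 and 4.58 CPM (-2.58, SE 0.45, edgeR adjusted p = 0.01). P1 GFP- replicate 2, the library with the most neuron markers, held the most of both genes, and without it the log2 fold change of *Rph3a* was -1.76.

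*Rims3*, *Rims4*, *Syt5*, *Syt7* and *Rab3c* also had their highest level among GFP- libraries in that library, with log2 fold changes of -2.22, -1.19, -2.64, -2.02 and -1.70 that did not pass the threshold (adjusted p from 0.018 to 0.08 by edgeR). Without P1 GFP- replicate 1 or replicate 2, more members were called in both directions, and the share of all genes called was not worked out. Without either P6 GFP- library, *Rab27b*, *Unc13a* and *Rph3a* did not pass, and no other member was called.

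**Figure D4:**
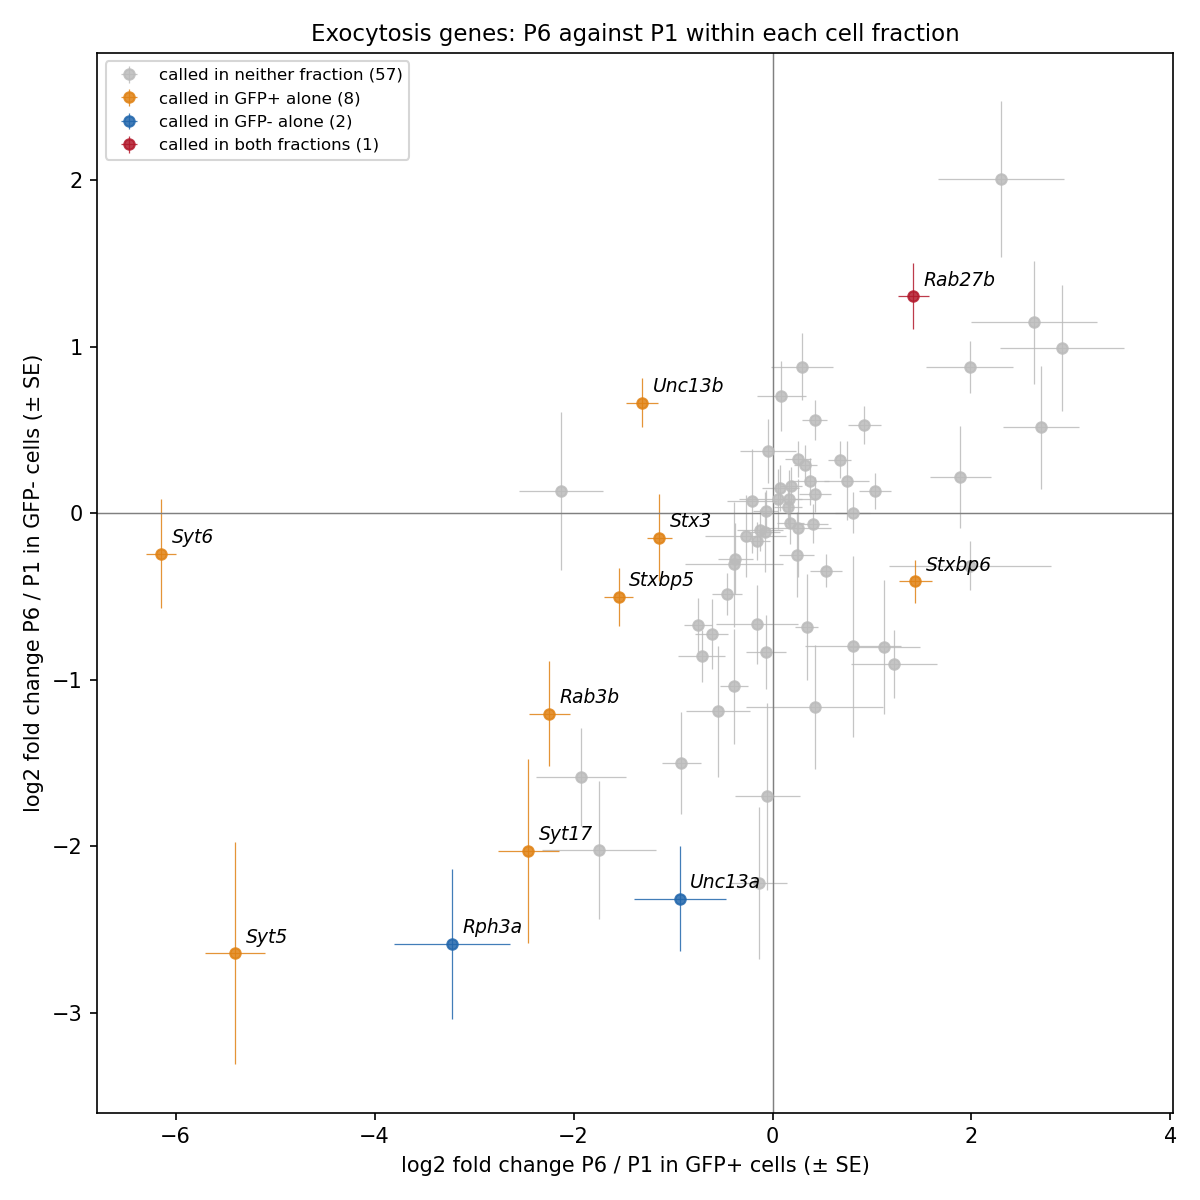
Log2 fold change of P6 over P1 in GFP+ cells (horizontal axis) and in GFP- cells (vertical axis) for the 68 members tested in both fractions, with bars of 1 SE and colour for the fraction in which a member was called. Of these, 8 were called in GFP+ cells alone (11.8%, against 3.43% of all genes tested in both), 2 in GFP- cells alone (2.94% against 6.41%) and *Rab27b* in both (1.47% against 1.38%), and *Syt6* lies at -6.15 on the GFP+ axis and -0.24 on the GFP- axis.

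Whether the ratio of GFP+ to GFP- cells differed between the ages was tested with an age-by-fraction interaction term in a fit of all 8 libraries. Of 69 members, 3 passed (4.35%, against 1.93% of all genes). Of these, 1 had a ratio higher at P6 (1.45%, against 0.946% of all 19233 genes) and 2 had a ratio higher at P1 (2.9%, against 0.988%). The median difference was 0.12 over the members and 0.03 over all genes. For *Syt6* the log2 ratio at P6 was below that at P1 by the largest amount among the members tested, -5.92 (SE 0.39, edgeR adjusted p = 4.1e-04). For *Unc13b* the difference was -2.00 (SE 0.25, edgeR adjusted p = 0.0045), with the change in GFP+ cells (-1.31) and that in GFP- cells (0.66) in opposite directions, though the second did not pass its own test (adjusted p = 0.025 by edgeR). For *Stxbp6* it was 1.82 (SE 0.21, edgeR adjusted p = 0.0034). This gene was lower in GFP+ cells at P1 and level with GFP- cells at P6, at 30.3 and 34.4 CPM in P6 GFP+ and 34.8 and 31.7 CPM in P6 GFP- libraries. *Rims1* (2.12, SE 0.46), *Stx11* (2.17, SE 0.49), *Syt1* (0.86, SE 0.20), *Stxbp5* (-1.07, SE 0.26) and *Stx6* (0.88, SE 0.21) did not pass, with adjusted p from 0.035 to 0.049 by edgeR. The *Syt6* difference passed without any 1 of the 8 libraries. *Stxbp6* passed without P1 GFP- replicate 1 and without either P6 GFP+ library, and had an adjusted p of at most 0.030 without any 1 of the other 5. *Unc13b* passed without either P6 GFP+ library alone and had one of at most 0.032 without any 1 of the other 6.

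Paralogues can be compared as levels per kilobase of exon (CPM per kb), and on this scale the member with the highest mean differed between the fractions in most families. At P1, *Syt6* made up 58.3 and 59.1% of the summed level of the Syt genes in GFP+ libraries and 1.64 and 1.75% in GFP- libraries, where *Syt1* led at a mean of 13.8 CPM per kb, although *Syt11* was above it in replicate 2 (17.0 against 13.8). At P6 the *Syt6* share in GFP+ libraries was 2.94 and 2.62%, and *Syt11* led at 10.5 CPM per kb. *Rab3b* made up 80.6 and 76.9% of the Rab3 level in P1 GFP+ libraries, 43.5 and 38% in P6 GFP+ libraries and 5.0 and 3.61% in P1 GFP- libraries. *Rab3a*, the main Rab3 of brain synapses, led in the other 3 groups, and its own log2 fold change between the fractions was -0.24 (SE 0.26) at P1 and 0.24 (SE 0.19) at P6, neither called.

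*Rims2* held 79.1 and 78.5% of the Rims level in P1 GFP+ libraries and 69.6 and 67% in P6 GFP+ libraries, against 20.2 and 17.7% and 17.9 and 16.4% in the GFP- libraries of the same ages. *Rims1* led both P6 GFP- libraries and P1 GFP- replicate 1, and *Rims3* led P1 GFP- replicate 2 (4.18 against 3.43 CPM per kb). The *Rims2* share separated the fractions without overlap at both ages. *Stx3* held 35.8 and 34.5% of the summed level of the syntaxins *Stx1a*, *Stx2*, *Stx3* and *Stx4a* in P1 GFP+ libraries, 18.3 and 19.2% in P6 GFP+ libraries and at most 3.75% in any GFP- library. *Rab27b* rose from 50.8 and 52.3% of the Rab27 pair to 75.6 and 73.6% in GFP+ libraries, and in GFP- libraries went from 16.5 and 15.8% to 29.6 and 24.2%.

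Some families kept the same leading member in all 8 libraries. *Vamp2* led the Vamp genes at means of 54.3, 50.1, 57.6 and 42.3 CPM per kb in P1 GFP+, P1 GFP-, P6 GFP+ and P6 GFP- cells. *Snap47* led the Snap genes at 18.8, 20.3, 19.8 and 18.9 CPM per kb, with *Snap23* next in each group. *Unc13b* led the Unc13 genes throughout, and its share went from 93.6 and 92.2% in P1 GFP+ to 73.6 and 78.5% in P6 GFP+ libraries, overlapping that of the P6 GFP- libraries (74.7 and 78.5%). Among the complexins, *Cplx2* led in GFP+ cells (13.3 and 7.46 CPM per kb at P1 and P6) and *Cplx1* in GFP- cells (25.1 and 12.6), but the order of the 2 complexins in GFP- cells was not the same in both replicates at either age. *Sytl1* led the Sytl genes in GFP+ cells (2.42 and 2.71 CPM per kb) and *Sytl2* in GFP- cells (5.85 and 4.13). Among all Stx genes, intracellular ones led, with *Stx6* first by mean in GFP+ cells (48.5 and 92.9 CPM per kb, with *Stx7* above it in P1 replicate 1, at 49.5 against 47.7) and *Stx5a*, a syntaxin of transport into the Golgi, first in GFP- cells (48.9 and 48.1).

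**Figure D5:**
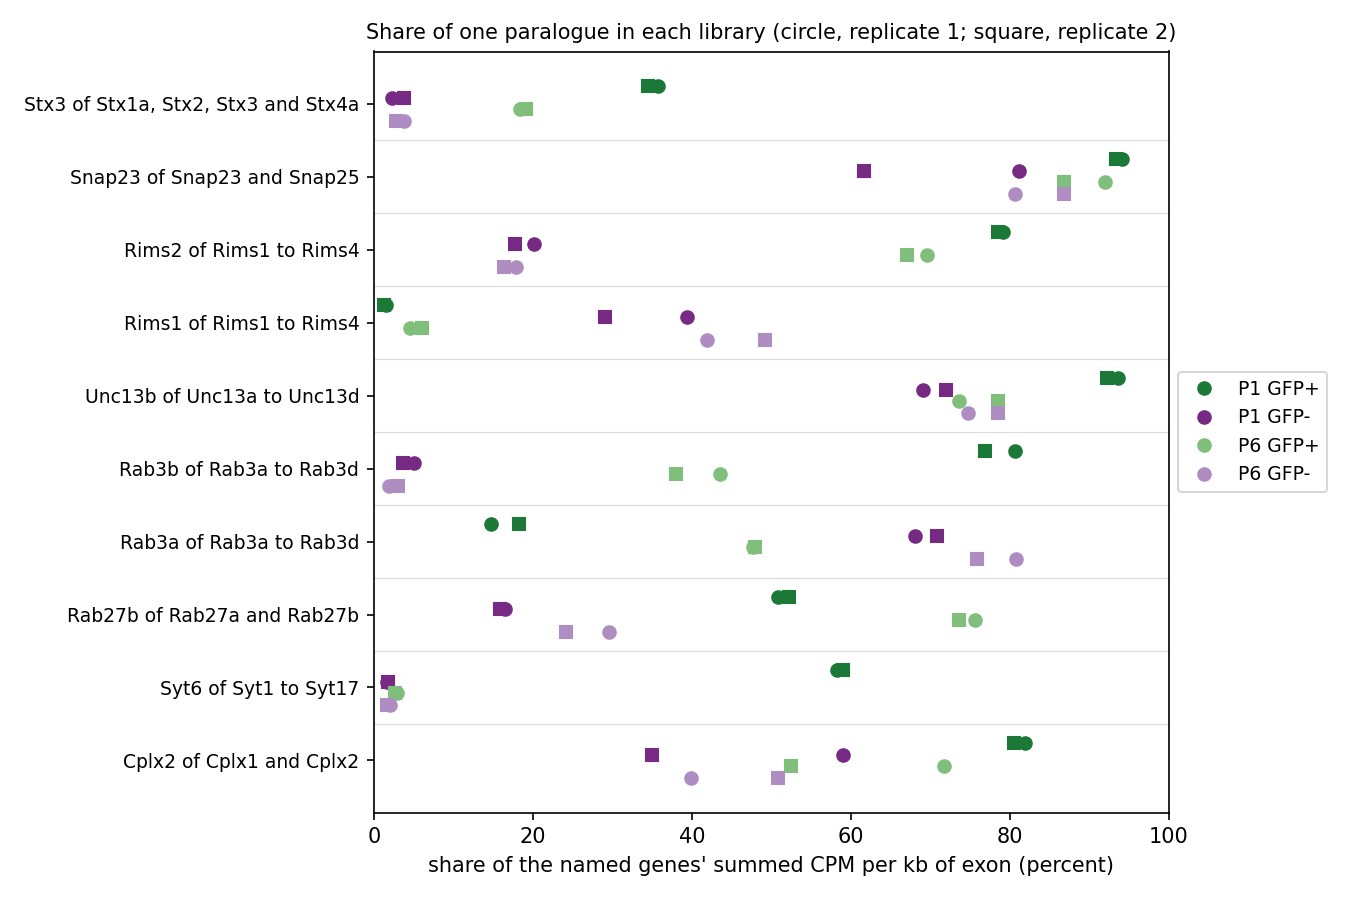
Share (percent, horizontal axis from 0 to 100) of 1 paralogue in the summed level per kilobase of exon of the genes named in each row, for each of the 8 libraries, with colour for the group, circles for replicate 1 and squares for replicate 2. The *Rims2* and *Rab27b* shares separate the fractions at both ages, while the *Syt6* share is 58.3 and 59.1 in P1 GFP+ libraries and at most 2.94 elsewhere.

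Of the 72 members, 35 were called in at least 1 of the 5 comparisons (50.7% of the 69 tested in any, against 39.5% of all 19628 genes) and 37 in none. *Cplx3*, *Cplx4* and *Vamp5* had too few counts to be tested in any comparison, with at most 0.225 CPM in a library, and 67 members were tested in all 5. The members called in none were of several kinds and include *Rab3a*, named above for brain synapses. The widely expressed *Vamp3* and *Vamp4*, by contrast, were called at P1. *Vamp2* was at 142 to 228 CPM across the 8 libraries, with a log2 fold change between fractions of 0.22 (SE 0.09) at P1 and 0.44 (SE 0.19) at P6. *Snap23*, also among the genes named above for secretory epithelia, was at 45.2 to 69.5 CPM, with -0.28 (SE 0.09) and -0.36 (SE 0.16). *Stx5a*, *Stx12*, *Stx16*, *Stx17*, *Stx18* and *Stx8*, which serve the Golgi, the endoplasmic reticulum and endosomes, had log2 fold changes between fractions from -0.33 to 0.37 at P1 and from -0.32 to 0.27 at P6. *Unc13d*, the partner of Rab27 in granule release by blood cells, did not pass the threshold in either comparison of fractions, with log2 fold changes of 0.90 (SE 0.20, edgeR adjusted p = 0.012) at P1 and 1.44 (SE 0.26, edgeR adjusted p = 0.012) at P6.

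Genes that work beside the machinery were followed in 6 lists that share no gene with the 72. Of 4 genes that take SNAREs apart for reuse, *Napa* was higher in GFP+ cells at P1 (0.47, SE 0.09, edgeR adjusted p = 0.0054), the one call of this list in the 5 comparisons. Of the 9 exocyst subunits, which tether vesicles at the plasma membrane, *Exoc1* and *Exoc6* were higher in GFP+ cells and *Exoc2* and *Exoc3* in GFP- cells at P1, with a median of -0.29 over the 9, and the other comparisons held no call of this list. *Exoc6* had the largest change of the 4, 1.19.

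Of 13 tested synaptic vesicle proteins, 3 were higher in P1 GFP+ cells and 6 in P1 GFP- cells, with a median log2 fold change of -1.37. Those higher in GFP+ cells were *Sv2c* (2.13), *Syn3* (2.17) and *Syngr1* (1.89). Those higher in GFP- cells were *Syp*, *Sv2b*, *Syn1*, *Syn2* and the vesicular glutamate transporters *Slc17a6* and *Slc17a7*, and the 2 transporters were at 5.44 and 17.5 and at 6.99 and 22.8 CPM in P1 GFP- libraries, higher in replicate 2 like the neuron markers. At P6 *Syngr1* alone was called (1.42, SE 0.16, edgeR adjusted p = 0.0036). *Slc17a8*, the glutamate transporter of inner hair cell vesicles, was at 4.43 and 4.58 CPM in P1 GFP+ and 4.51 and 5.28 CPM in P1 GFP- libraries and was called by edgeR in no comparison (adjusted p from 0.33 to 0.95).

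Of 9 active zone scaffold genes, *Pclo* was higher in GFP+ cells at both ages, at 82.7 and 76.5 against 12.8 and 24.9 CPM at P1 (2.18, SE 0.30, edgeR adjusted p = 0.0016) and 28 and 60.4 against 6.26 and 4.83 CPM at P6 (2.98, SE 0.40, edgeR adjusted p = 0.0052). *Ppfia2* was higher in GFP- cells at both ages (-3.76 and -3.36), and *Ppfia4* at P1 (-0.81). The Rim binding protein *Rimbp2* fell within GFP+ cells between P1 and P6, from 14.8 and 17.4 to 3.71 and 4.96 CPM (-1.79, SE 0.23, edgeR adjusted p = 0.0095), and *Ppfia4* fell within GFP- cells (-1.20). The list thus had members in both directions, with medians of -0.15 at P1 and -0.33 at P6 between fractions.

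Of 9 dense core granule genes, *Cadps2*, a priming factor related to Unc13, was higher in GFP+ cells at both ages, at 115 and 115 against 16.5 and 36.7 CPM at P1 and 77.2 and 75.9 against 15.8 and 11.1 CPM at P6 (2.50, SE 0.23, edgeR adjusted p = 0.0018). *Scg5* joined it at P6 (2.07), while *Cpe* was higher in GFP- cells at both ages (-1.25 and -1.51) and *Vgf* at P1. Within GFP- cells *Scg2* rose (1.56) and *Vgf* fell between the ages, and none of the list passed within GFP+ cells, where 2 had an unadjusted p below 0.05 upward and 3 downward and DESeq2 called 2 and 1.

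Of 12 tested calcium sensors and Rab effectors, *Otof* and *Dysf*, related ferlin proteins of membrane fusion and repair, were higher in GFP+ cells at both ages. *Otof*, whose loss causes deafness through failed release from inner hair cells and which is also one of the hair cell markers, was at 151 and 191 CPM in P1 GFP+, 18.2 and 16.6 in P1 GFP-, 114 and 118 in P6 GFP+ and 12.5 and 22 CPM in P6 GFP- libraries. The other hair cell markers called at both ages moved the same way at lower levels, with *Pou4f3* at 12.1 and 15.9 against 0.95 and 1.46 CPM at P1. *Dysf* rose with age in GFP+ cells, from 27.8 and 32.1 to 90.7 and 103 CPM (1.78, SE 0.13, edgeR adjusted p = 0.0029), and so did *Doc2b*, from 0.676 and 0.603 to 5.52 and 4.02 CPM (2.97, SE 0.35, edgeR adjusted p = 0.0077). On the GFP- side, *Myrip* and *Rab3il1* were called at both ages (-4.48 and -4.09 at P1), and *Doc2b* and *Myof* at P1, while *Rab3ip* was higher in P1 GFP+ cells (0.97). The *Rab27a* effector *Myrip* also rose within GFP- cells (1.36). In the interaction, 0 of the 56 genes of the 6 lists that were tested were called by edgeR, 10 had an unadjusted p below 0.05 for a ratio higher at P6 and 1 for a ratio higher at P1, and DESeq2 called 3 of them, all higher at P6.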

How the data were processed

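RNA-seq libraries of sorted *Lfng-GFP* cochlear cells were analysed, 2 for each of 4 groups set by age and fraction in the labels. Each deposited file holds raw read counts by Ensembl gene ID without normalization, made by the authors through paired-end sequencing of poly(A)-selected RNA (TruSeq, a kit that does not mark strand) and alignment to mm9 (NCBIM37). The submitters' processing notes name TopHat 1.4.0, HTSeq and DESeq 1.9.2. How reads on overlapping genes were counted is not given in the sources used here, so members that overlap another gene are uncertain. Reads assigned to no single gene are listed apart and made up the rest beside the 64.7% to 76.2% of listed reads on genes; they entered no library size or test.

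Symbols, exon lengths and positions came from the NCBIM37 annotation (34391 of 36536 genes). Each comparison was fitted on its own 4 libraries with edgeR 4.0.16 in R 4.3.3 (filterByExpr with a minimum count of 10 and a minimum total count of 15, TMM, quasi-likelihood test, Benjamini-Hochberg adjustment over all genes tested), and the interaction of age and fraction on all 8. A gene was called at an adjusted p below 0.01, and calls with a fold change above 4 were counted as well. The SE printed beside a log2 fold change was derived from its F statistic, as the size of the change over the root of F. Levels in CPM use the library total on genes. With 2 libraries a group, precision is limited by their spread, and a gene below 1 CPM rests on few counts. Simulated data with known changes were used to check the scripts. Figures were drawn with Python 3.11.15 and matplotlib 3.10.9.

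The members, the 6 lists of related genes and the 8 marker lists (supporting cell, hair cell, spiral ganglion neuron, Schwann and satellite glia, melanocyte, macrophage, mesenchyme, endothelium) were chosen with earlier results of these data known. Named in each comparison are up to 10 called members per direction with the largest change and at least 1 CPM in the higher group, all members called in the interaction, the leading member of each family per group, and members too low to be tested. Other members and genes of the lists are named with their values to account for the set, chosen after these were seen. Some members enter the counts, but their own values are not reported here. Alternatives were DESeq2's size factors, library totals, the DESeq2 1.42.0 test, fits without the filter or over all 8 libraries, a replicate block and each library left out. A crossed replicate block was chosen after seeing the data. Replicate numbers pair no samples in the labels, and with 2 pairs a comparison the data cannot settle it.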

Additional observations from a re-analysis of the deposited data

Results flagged for a closer look

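For 3 members the log2 ratio of GFP+ to GFP- cells differed between P6 and P1 by edgeR's test of an age-by-fraction term, the ratio at P6 minus that at P1 being 1.82 (SE 0.21, edgeR adjusted p = 0.0034) for *Stxbp6*, -2.00 (SE 0.25, edgeR adjusted p = 0.0045) for *Unc13b* and -5.92 (SE 0.39, edgeR adjusted p = 4.1e-04) for *Syt6*. Within the fractions, the larger change with age was that of GFP+ cells in *Syt6* (-6.15 in GFP+ and -0.24 in GFP- cells, P6 over P1), and the fractions moved in opposite directions in *Unc13b* (-1.31 and 0.66) and *Stxbp6* (1.44 and -0.41), where the movement in GFP- cells was not called.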

How the results depend on the processing

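No called member changed direction under any setting tried. In the comparison of fractions at P1, 12 members higher in GFP+ and 17 higher in GFP- cells, the count higher in GFP- cells was 27 without a filter on low counts, and leaving out 1 library gave 9 to 19 and 9 to 32. At P6 the count of 3 higher in GFP- cells was 5 with DESeq2's size factors, 12 with the DESeq2 test, 14 without the filter and 13 with all 8 libraries in the fit, and leaving out 1 library gave 0 to 17 higher in GFP+ and 0 to 21 higher in GFP- cells. Within GFP+ cells, 2 members higher at P6 and 7 higher at P1, the counts were 11 and 11 with the DESeq2 test and 13 and 13 without the filter, the first was 8 with all 8 libraries, and leaving out 1 library gave 0 to 19 and 3 to 20. Within GFP- cells, 1 and 2, the counts were 6 and 13 with the DESeq2 test, 9 and 21 without the filter and 0 and 1 with library totals, the second was 0 with all 8 libraries, and leaving out 1 library gave 0 to 6 and 0 to 22. In the interaction, 1 ratio higher at P6 and 2 higher at P1, the first was 6 with the DESeq2 test, the counts were 12 and 6 without the filter, and leaving out 1 library gave 0 to 4 and 1 to 2. The cause of these shifts was not tested. The share of all genes called was not worked out for the settings of this section, so these counts are not read as a trait of the members. Library totals in place of TMM moved the median log2 fold change of all genes by -0.10 at P1, -0.19 within GFP- cells and 0.12 in the interaction, and then *Stx7* at P1, *Rab3c* and *Rab27a* at P6 and *Rab27b* and *Rph3a* within GFP- cells no longer passed. With all 8 libraries in the fit, *Stx7* and *Stx1a* at P1, *Syt17* within GFP+ cells and *Unc13a* and *Rph3a* within GFP- cells did not pass.

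With a replicate block, 11 and 18 members were called at P1, 9 and 4 at P6, 8 higher at P1 and 3 higher at P6 within GFP+ cells, 2 and 0 within GFP- cells, and 2 and 1 in the interaction. *Stx7* and *Rab27a* at P1, *Rab3c* and *Rab27a* at P6 and *Rab27b* and *Rph3a* within GFP- cells lost their call under the block. Same-numbered libraries deviated together with a correlation across genes of 0.037 at P1, 0.061 at P6, -0.154 within GFP+ cells and -0.326 within GFP- cells. The labels give no shared origin for a number, and 2 pairs a comparison do not settle whether the numbers pair the libraries. With the numbers crossed, 3 and 7 members were higher at P6 and at P1 within GFP+ cells, and 7 and 13 within GFP- cells.

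The low members rest on few counts. *Rims1*, *Sytl1*, *Syt4*, *Stx11*, *Unc13c*, *Syt5*, *Syt17*, *Sytl2*, *Sytl4* and *Rab3c*, among others, were near or below 1 CPM in at least 1 group. *Syt5* had 5 and 13 counts in the P6 GFP+ libraries, and *Cplx3*, *Cplx4* and *Vamp5* could not be tested.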

Other observations

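The remaining marker lists separated the fractions as well. At P1, 4 of 4 melanocyte markers were higher in GFP- cells, with a summed level of 0.938 and 2.61 CPM in GFP+ and 371 and 249 CPM in GFP- libraries and *Mlana* at 0 in both GFP+ libraries. At P6, 2 of the 4 were, and P6 GFP+ libraries held 25.9 and 82.8 CPM, more than at P1 in both. Of 5 macrophage markers, 4 were higher in GFP- cells at each age, and the P6 GFP+ libraries held 39.8 and 72.6 CPM against 18.7 and 16.3 CPM at P1. Of 5 mesenchyme markers, 4 at P1 and 1 at P6 were higher in GFP- cells. Of 6 Schwann and satellite glia markers, 5 were higher in GFP- cells at P1 and *Sox10* in GFP+ cells, and *Sox10* alone was called at P6. All 3 endothelium markers were higher in GFP- cells at P1, and they were not called at P6.

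Several low members of the synaptotagmin group had higher levels at P6 in both fractions without passing the threshold by edgeR. *Syt10* went from 0.131 and 0.0402 to 0.45 and 0.469 CPM in GFP+ libraries and from 0.132 and 0.158 to 0.486 and 0.561 CPM in GFP- libraries (adjusted p = 0.06 and 0.028). *Syt15* went from 0.698 and 0.321 to 1.69 and 4.49 CPM and from 0.581 and 0.998 to 1.48 and 1.64 CPM (0.043 and 0.074). *Syt8*, at most 0.753 CPM in a library, was listed at 0 in P6 GFP+ replicate 2. In GFP+ cells *Sytl3*, a Rab27 effector, went from 1.27 and 1.85 to 5.23 and 5.46 CPM (1.89, SE 0.31, edgeR adjusted p = 0.017), and *Vamp8*, a Vamp of exocrine granules and late endosomes, from 31.3 and 34.1 to 64.3 and 51.8 CPM (0.92, SE 0.17, edgeR adjusted p = 0.022).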
